A study of Mus musculus with 4 samples.

Results

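The 10 mouse genes treated here are used to recognise plasmacytoid dendritic cells (pDC). They are *Siglech*, *Tcf4*, *Irf8*, *Spib*, *Runx2*, *Ccr9*, *Klk1*, *Ly6d*, *Cox6a2* and *Smim5*, and were followed through immune cells sorted from melanoma tumors. The list names genes and uses no threshold on a measured value, but it was drawn up with earlier results of these data known. Its members are 10 of 32285 genes in the matrix of the CD45 sort and 10 of 31053 in that of the T cell sort. The tumors grew from B16-F10 melanoma cells, a single-cell clone that carried the fluorescent protein ZsGreen (ZsG) in a lentiviral vector under a doxycycline (dox) switch. The cells were injected under the skin of wild-type C57BL/6 mice, which all received dox in their drinking water, and tumors were taken on day 8. ZsG in an immune cell marked material that had come from the tumor cells, that is, intercellular transfer. Tumor-infiltrating CD45-positive cells gave 1 library from a ZsG-negative gate and 1 from a ZsG-positive gate. Cells sorted as positive for CD45 and a T cell marker gave another such pair. That marker is the T cell receptor beta chain (TCRb) in the name of the deposited matrix and CD3 in the paper's methods. By the paper's account the CD45 sort took only bright cells as ZsG-positive, and most lymphocytes with ZsG were sorted as ZsG-negative there. ZsG-negative in that sort thus names the gate and not an absence of ZsG. There was 1 library per sorted fraction and no replicate, so nothing below speaks of the spread between mice. No source used here says whether a library pooled several tumors. The ZsG gate, the library and whatever mice it came from cannot be told apart.

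The pDC is a dendritic cell of lymphoid appearance, known as the main source of type I interferon when its endosomal receptors meet viral nucleic acid. The E protein TCF4 (E2-2) is the factor that commits a cell to the pDC fate and holds it there. It works with IRF8, SPIB and RUNX2, and ID2, which blocks E proteins, favours the classical dendritic lineages instead. SIGLECH is a receptor of the Siglec family and a surface marker of mouse pDC. CCR9 is the receptor for the gut and thymus chemokine CCL25, and LY6D is a small surface protein of B cell and pDC precursors. *Klk1* encodes tissue kallikrein, a serine protease, *Cox6a2* a subunit of cytochrome c oxidase otherwise typical of heart and muscle, and *Smim5* a small membrane protein.

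The 250 bases before the RefSeq start of *Siglech* and of *Klk1* (build GRCm38.p6, plus strand) are shown because these genes came closest to pDC-only expression in the CD45 sort and TCF4 belongs to the proteins that bind the E-box. Capitals mark each E-box, CANNTG, which reads the same on both strands. *Siglech* (chr7:55767934-55768183) held 3 of them and *Klk1* (chr7:44225110-44225359) held 2.
Siglech: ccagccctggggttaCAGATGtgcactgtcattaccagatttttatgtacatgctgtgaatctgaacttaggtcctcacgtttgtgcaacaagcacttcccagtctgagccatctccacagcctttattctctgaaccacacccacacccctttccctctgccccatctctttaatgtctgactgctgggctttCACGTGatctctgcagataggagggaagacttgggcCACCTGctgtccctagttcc
Klk1: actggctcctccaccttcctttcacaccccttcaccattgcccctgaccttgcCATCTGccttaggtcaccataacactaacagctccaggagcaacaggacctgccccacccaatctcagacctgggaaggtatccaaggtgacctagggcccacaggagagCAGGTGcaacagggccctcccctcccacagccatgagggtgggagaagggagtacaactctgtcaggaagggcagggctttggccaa
RefSeq promoters were at hand for 6 of the 10 genes. In the same window *Spib* and *Ccr9* held 2 E-boxes and *Runx2* 1, and the *Irf8* promoters held 0 and 2. An E-box is common: 66.22% of 32851 windows of this length held at least 1. The Runt motif TGTGGT, on either strand, was found once each before *Siglech* and *Runx2* and in 14.05% of all windows. The Ets motif GAGGAA and the interferon response motif (GAAA, any 2 bases, GAAA) were in none of the 7 windows of these 6 genes, and in 23.25% and 2.977% of all windows. *Tcf4*, *Ly6d*, *Cox6a2* and *Smim5* are named here without sequence.

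All 10 gene identifiers of the CD45 matrix matched GENCODE vM21 on GRCm38, and those of the T cell matrix were not compared. The 4 transcription factor genes lie on chromosome 18 (*Tcf4*, 69343356 to 69689079, plus strand), chromosome 8 (*Irf8*, 120736358 to 120756694, plus strand), chromosome 7 (*Spib*, 44525993 to 44532071, minus strand) and chromosome 17 (*Runx2*, 44495987 to 44814797, minus strand). *Klk1* (44225360 to 44229618, plus strand), *Siglech* (55768178 to 55778925, plus strand) and *Cox6a2* (128205435 to 128206387, minus strand) share chromosome 7 with *Spib*. *Ccr9* lies on chromosome 9 (123678439 to 123784330, plus strand), *Smim5* on chromosome 11 (115899966 to 115906269, plus strand) and *Ly6d* on chromosome 15 (74762056 to 74763620, minus strand).

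Each value of the deposited matrices counts unique molecular identifiers (UMIs), 1 for each captured RNA molecule. The 4 libraries held 1136 to 5437 cell barcodes and 10030971 to 56510578 UMIs, and the filters kept 948 to 4698 cells, with median depths of 5769.5 to 9928 UMIs. The pairs shared 6 barcode sequences in the CD45 sort and 1 in the T cell sort. Levels are given as UMIs per 1000000 UMIs of the same cells (CPM), ratios as log2, and the ranges in brackets are 95% intervals that cover counting error only. The order of the T cell libraries is given in opposite ways by the library names and by the name under which the matrix was deposited, and the order of the matrix was used. With the other order, each direction between the ZsG libraries of the T cell sort turns.

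Cells were grouped with the 10 genes kept out of the genes that formed the clusters, and clusters were named by other markers. For pDC these were *Bst2*, *Pacsin1*, *Cd300c*, *Klra17*, *Atp1b1*, *Cd209d*, *Lair1* and *Upb1*, of which 7 of 8 were more than 4-fold above every other class in each sort. In the CD45 sort 282 cells were pDC-like, 222 of them ZsG-negative (4.73% of kept cells, 4.14 to 5.37) and 60 ZsG-positive (1.46%, 1.11 to 1.87). The T cell sort held 783, of which 126 were ZsG-negative (13.3%, 11.2 to 15.6) and 657 ZsG-positive (35.0%, 32.8 to 37.2). The latter went against the gate's label: the summed level of the 7 T cell markers was 29.1 and 80.8 CPM in the ZsG-negative and ZsG-positive pDC-like cells of that sort, with *Cd3e* at 0 in the former, against 4290 CPM in its T cell-like cells. Only 5 of the 783 cells reached the 0.055% of UMIs from CD3 genes that the study's methods asked of T cells.

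All 10 genes were higher in pDC-like cells than in any other named class of at least 20 cells, in both sorts, which held for 13.6% of 13542 genes in the CD45 sort and 12.6% of 11781 genes in the T cell sort. In the CD45 sort 7 of the 10 were at least 4-fold above the next class, against 1.03% of all genes, and in the T cell sort 8 of 10, against 1.38%. The median log2 ratio of the 10 genes to the next class was 3.90 and 4.33, and that of all genes -1.10 and -1.13. Genes that move with the markers that name a cluster are bound to be high in it, so these values describe the class and carry no test.

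*Siglech* reached 1541 CPM (1492 to 1592) in pDC-like cells of the CD45 sort. DC2-like cells, the classical dendritic cells that were next, had 9.39 CPM, a log2 ratio of 7.36 (7.01 to 7.74). The B cell-like class had 1 UMI (6.81 CPM), monocyte/macrophage-like cells 0.160 CPM, and mature DC-like cells 0 UMIs. *Klk1* stood apart to a like degree, at 944 CPM (906 to 984) against 6.50 in DC2-like cells (log2 ratio 7.18, 6.76 to 7.64), and with 0 UMIs in the B cell-like, DC1-like and mature DC-like classes.

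*Ccr9* had 1203 CPM (1160 to 1248) in pDC-like cells. The next class was B cell-like with 2 UMIs (13.6 CPM), which puts the log2 ratio at 6.46 with a wide interval (4.61 to 9.51). *Cox6a2* had 773 CPM (738 to 809), and the next level was 9.41 CPM in the NK cell/ILC-like class (log2 ratio 6.36, 6.12 to 6.61). *Smim5* had 449 CPM (423 to 477) and was next highest in DC2-like cells at 17.0 CPM (log2 ratio 4.72, 4.45 to 5.01). These 5 genes, a receptor, a chemokine receptor, a protease, an oxidase subunit and a membrane protein, had at most 17.0 CPM in the other named classes of this sort, while an unnamed cluster described below held more.

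The transcription factors were shared more widely. *Tcf4* had 1499 CPM (1450 to 1548) in pDC-like cells and 198 in B cell-like cells (log2 ratio 2.92, 2.40 to 3.50), and every other named class held some, from 11.6 CPM in T cell-like to 84.8 in mature DC-like cells. *Runx2*, better known as the master factor of bone formation, had 544 CPM (515 to 574), next to 63.9 in T cell-like and 49.8 in NK cell/ILC-like cells (log2 ratio to the former 3.09, 2.98 to 3.20). *Irf8* was high in several other classes. Its 2993 CPM (2924 to 3062) stood only a little above the 2368 of DC1-like cells, the other dendritic lineage that is known to need it (log2 ratio 0.34, 0.27 to 0.41), and mature DC-like and NK cell/ILC-like cells had 1132 and 1064 CPM.

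*Spib* and *Ly6d* were shared with B cells. *Spib* had 261 CPM (241 to 282) in pDC-like and 245 in B cell-like cells, and the interval of the log2 ratio spanned 0 (0.09, -0.39 to 0.62). *Ly6d* had 2608 CPM (2544 to 2673) against 2378 (log2 ratio 0.13, -0.02 to 0.29). Neither pair could be told apart at this depth, since only 40 cells were B cell-like, 39 of them ZsG-negative. Without the cells in the top 5% of doublet scores the log2 ratios were -0.23 and -0.17, so that 8 of the 10 genes were then highest in pDC-like cells. The scores were made with the 10 genes left in, and the share of all genes was not worked out for this setting. Among the other named classes the next *Spib* level was 19.0 CPM in mature DC-like cells and the next *Ly6d* level 9.24 in DC2-like cells.

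**Figure D1:**
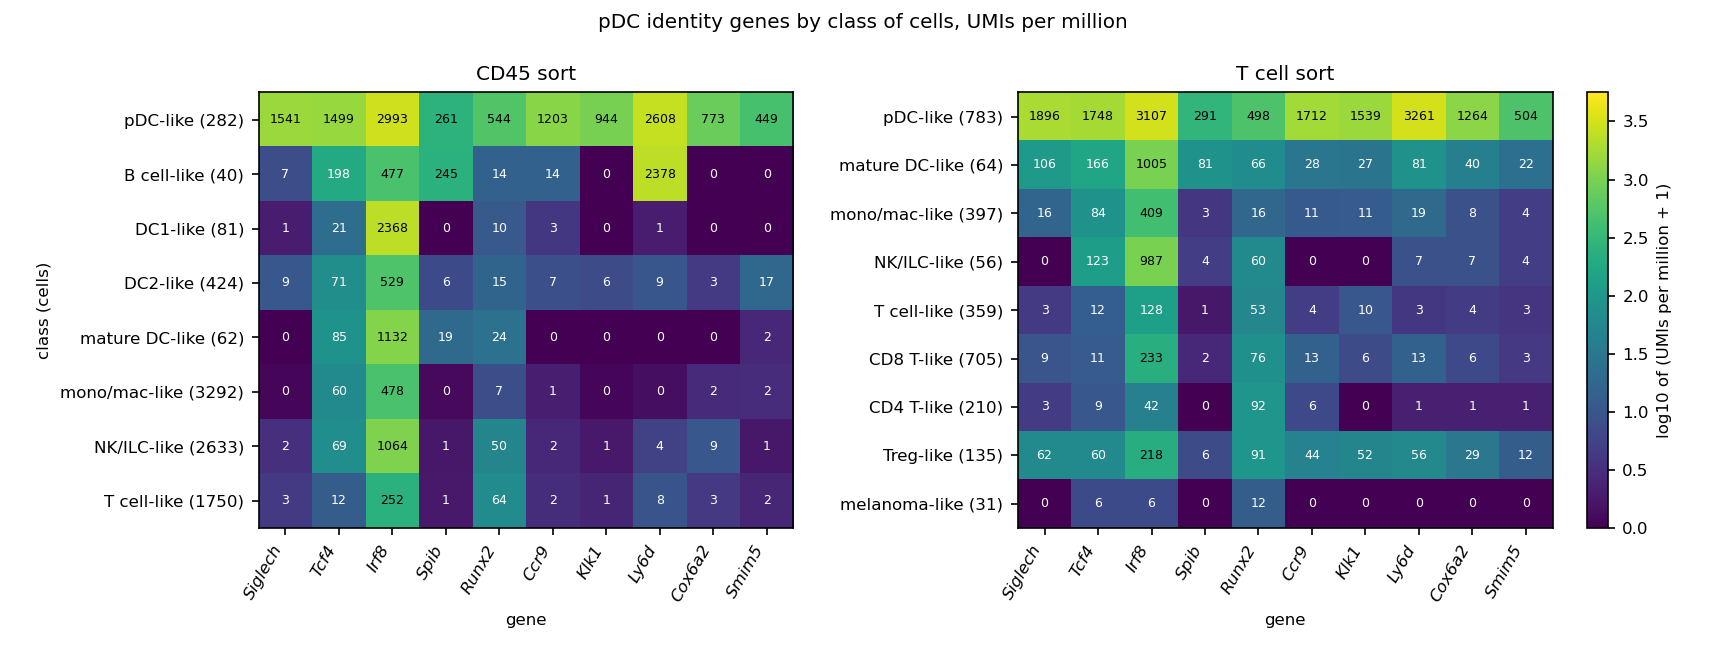
Level of the 10 pDC identity genes (columns) in each named class of cells (rows, with the number of cells) in CPM, for the CD45 sort (left) and the T cell sort (right). Colour is log10 of CPM plus 1. The pDC-like row is highest in every column, with *Spib* and *Ly6d* close to it in the B cell-like row and *Irf8* in the DC1-like row of the CD45 sort.

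No B cell-like, DC1-like or DC2-like class was named in the T cell sort, so that ratios to the next class rest on another set of classes. A cluster of 87 cells, led by *Ccl17* and *Xcr1*, had 5 of 5 DC2 and 6 of 6 DC1 markers raised but met no name. It was left out of these ratios. Its *Irf8* level of 1104 CPM was above that of mature DC-like cells, the next class given for *Irf8* below. Every other gene of the list was lower in this cluster than in its next class. There *Ly6d* had 3261 CPM (3218 to 3305) in pDC-like cells and 80.6 in mature DC-like cells (log2 ratio 5.34, 4.95 to 5.75). *Spib*, at 291 CPM (278 to 304), stayed below 4-fold over the same class (80.6 CPM, log2 ratio 1.85, 1.46 to 2.27), as did *Irf8* with 3107 CPM against 1005 (1.63, 1.52 to 1.74). *Siglech* had 1896 CPM against 106 in mature DC-like cells (4.16, 3.82 to 4.52), *Klk1* 1539 against 52.0 in Treg-like cells (4.89, 4.48 to 5.33) and *Cox6a2* 1264 against 40.3 in mature DC-like cells (4.97, 4.43 to 5.57). *Ccr9* had 1712 CPM against 44.4 in Treg-like cells, *Tcf4* 1748 against 166 and *Smim5* 504 against 22.4 in mature DC-like cells, and *Runx2* 498 against 92.0 in CD4 T-like cells.

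The low levels outside the class came from few cells. *Siglech* UMIs were found in 6.25% of the 64 mature DC-like cells and 3.70% of the 135 Treg-like cells. Of the 17 cells outside the class with 3 or more *Siglech* UMIs in that sort, 3 were mature DC-like and 3 Treg-like, and all 6 were in the top 5% of doublet scores. Once such high-scoring cells were removed, the log2 ratio was 8.74 for *Siglech*, 8.40 for *Ly6d*, 8.05 for *Ccr9* and 7.23 for *Klk1*, and 8 of 10 genes were still past 4-fold. The scores were made with the 10 genes left in, so cells of other classes with pDC genes are apt to score high. A rise on removing them was thus built in and carries no test. The share of all genes past 4-fold was not worked out for this setting.

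The share of pDC-like cells with at least 1 UMI in the CD45 sort was 99.6% for *Tcf4*, 96.5% for *Irf8*, 94.7% for *Runx2*, 89.7% for *Siglech*, 85.8% for *Ccr9*, 80.1% for *Ly6d*, 76.2% for *Smim5*, 74.5% for *Spib*, 66.3% for *Cox6a2* and 61.0% for *Klk1*. Of cells that should lack it, 0.722% of NK cell/ILC-like and 0.182% of monocyte/macrophage-like cells had a *Siglech* UMI, at median depths of 4552 and 9271.5 UMIs against 8378 in pDC-like cells. The share was 1.65% in DC2-like, 2.50% in B cell-like and 7.39% in unnamed cells. Whether free RNA gave these UMIs was not tested. When each cell was thinned to 3000 UMIs so that depth was equal, the shares in pDC-like cells ran from 48.6% (*Spib*) to 96.1% (*Tcf4*), and *Klk1* was at 51.8% (45.8 to 57.7).

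At the same thinned depth a pDC-like cell of the CD45 sort had UMIs of a median of 8 of the 10 genes (quartiles 6 and 9). The median was 3 in B cell-like cells, 1 in DC1-like, DC2-like, mature DC-like, NK cell/ILC-like and monocyte/macrophage-like cells, and 0 in T cell-like cells. At least 5 of the genes were found in 81.2% of pDC-like cells (76.2 to 85.6), in 0 of 21 B cell-like cells, which allows a share of up to 14.3%, and in 0.950% of DC2-like cells. The ZsG-negative pDC-like cells had a median of 8 genes and the ZsG-positive ones a median of 4, and at least 5 genes were seen in 91.0% (86.4 to 94.4) and 45.0% (32.1 to 58.4). The medians were 9 and 8 in the T cell sort.

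**Figure D2:**
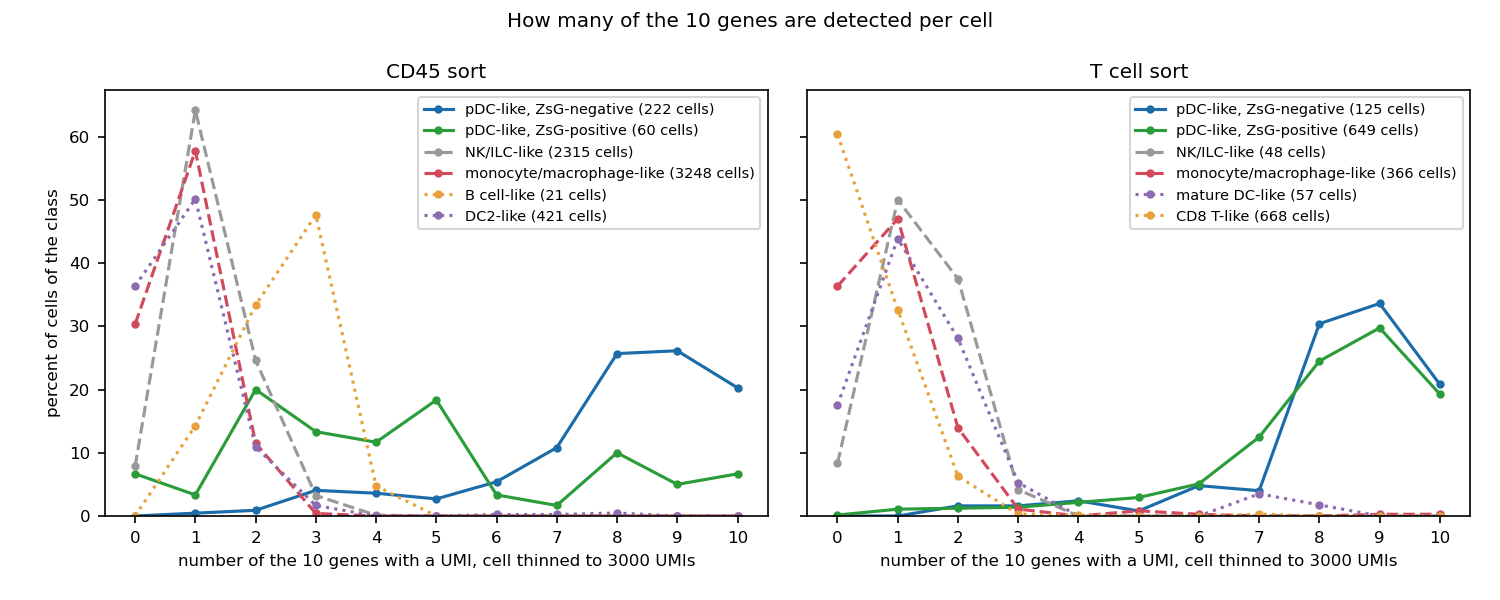
Share of the cells of a class (y axis, percent) by how many of the 10 genes had a UMI (x axis), with each cell thinned to 3000 UMIs, in the CD45 sort (left) and the T cell sort (right). The ZsG-negative pDC-like cells peak at 8 to 10 genes in both sorts, while the ZsG-positive pDC-like cells of the CD45 sort spread from 0 to 10 with a median of 4.

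The spread among the pDC-like cells of the CD45 sort followed a division into a larger subcluster of 224 cells, led by the immunoglobulin light chain gene *Iglc3*, and a smaller one of 58 cells led by *Apod*, which encodes apolipoprotein D. All cells of the larger one had *Siglech*, and 29 of the 58 *Apod*-led cells had none. The *Apod*-led cluster had 8 of 8 pDC markers raised over the other cells of the sort, which gave it the name pDC-like, but also 4 of 5 DC2 markers. Whether these cells are pDC was not tested. All 10 genes were lower in the *Apod*-led cells, as were 55.3% of 7662 genes, and 8 of them at least 2-fold, against 14.7%. The subclusters were made from these same cells, so the values are a description.

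The size of the gap differed between the genes. *Tcf4* (1103 against 1609 CPM, log2 ratio -0.54) and *Runx2* (338 against 601 CPM, -0.83) were within 2-fold, and every *Apod*-led cell had a *Tcf4* UMI. *Irf8* was lower (1166 against 3501 CPM, -1.59), and *Spib* had 39.9 against 323 CPM. Among the surface proteins, *Siglech* had 139 CPM in *Apod*-led and 1931 in *Iglc3*-led cells (log2 ratio -3.80, -4.16 to -3.47), *Ccr9* 137 and 1500, and *Ly6d* 294 and 3251. The remaining 3 genes were close to absent from *Apod*-led cells. *Klk1* had 2 UMIs there (3.80 CPM, against 1205, log2 ratio -8.31, -11.36 to -6.46), *Smim5* 3 UMIs (5.70 against 573 CPM, -6.65, -8.93 to -5.10) and *Cox6a2* 4 UMIs (7.60 against 986 CPM, -7.02, -8.90 to -5.66).

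Several related factors lay the other way. *Spi1*, the paralog of *Spib* that drives myeloid development, had 473 CPM in *Apod*-led and 66.0 in *Iglc3*-led cells. *Runx1* had 298 and 94.5, and *Irf4*, a relative of *Irf8*, had 64.6 and 20.1. *Zbtb46*, a classical dendritic cell factor, had 43.7 and 3.70 and the DC2 marker *Cd209a* 196 and 25.3, whereas *Tcf12*, another E protein gene, had 94.9 and 243. *Id2* was low in both, at 15.2 and 20.6 CPM. *Dntt*, which encodes the enzyme that adds bases at immunoglobulin joints, had 0 UMIs in *Apod*-led cells and 76.0 CPM in the others, and the lysosomal protease gene *Ctsl* had 169 and 1838.

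The T cell sort held a like *Apod*-led subcluster of 96 cells, beside subclusters led by *Spns3* (292 cells), *Iglc2* (290) and the interferon-induced *Ifi44* (105). All 10 genes were again lower in the *Apod*-led cells than in the other 687, as were 53.8% of 9195 genes, and 7 were at least 2-fold lower, against 11.8%. *Tcf4* was nearly level (1666 against 1761 CPM), and *Klk1* had 22.2 against 1789 CPM (log2 ratio -6.33, -7.03 to -5.72). *Siglech* had 528 against 2121 CPM and *Cox6a2* 107 against 1454. Among the other 3 subclusters *Klk1* was the gene that varied most, at 912 CPM in *Spns3*-led, 2225 in *Ifi44*-led and 2551 in *Iglc2*-led cells. *Ccr9* ran from 1563 in the *Spns3*-led to 2273 CPM in the *Iglc2*-led cells, and *Irf8* only from 3220 to 3453.

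The border of the *Apod*-led cells depended on the clustering, while the pDC-like total was 282 or 283 cells. With the 10 genes allowed among the variable genes, 114 cells of the CD45 sort were *Apod*-led, and at a resolution of 0.4 there were 116. The log2 ratios to the other pDC-like cells at a resolution of 0.4 were then smaller, at -0.31 for *Tcf4*, -1.51 for *Siglech*, -2.36 for *Cox6a2* and -4.93 for *Klk1*. All 10 were lower, against 53.5% of genes, and 7 at least 2-fold, against 7.6%. In the T cell sort the *Apod*-led cells numbered 158 with the 10 genes allowed and 162 at the lower resolution, where the log2 ratio of *Klk1* was -4.07 and -3.93.

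**Figure D3:**
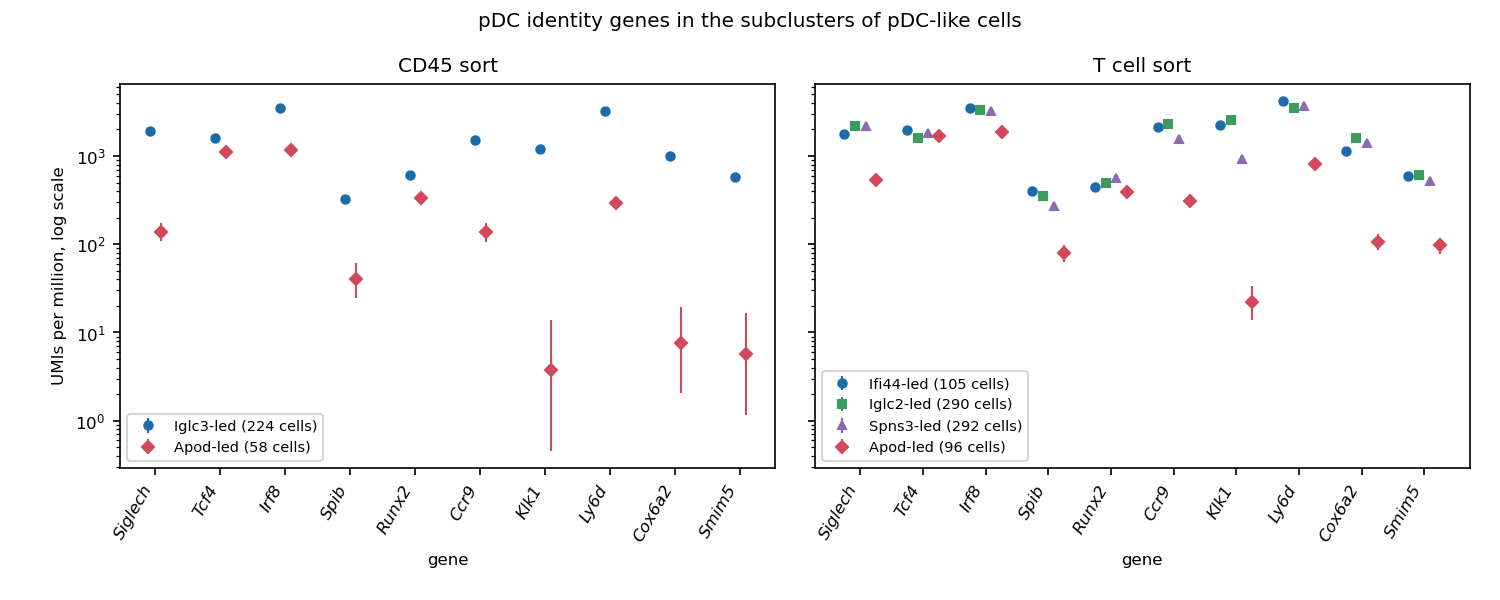
Level of the 10 genes in the subclusters of pDC-like cells (CPM, log scale), with 95% Poisson intervals for counting error only, in the CD45 sort (left) and the T cell sort (right). In both sorts the *Apod*-led cells (red diamonds) sit close to the others for *Tcf4* and *Runx2* and far below them for *Klk1*, *Cox6a2* and *Smim5*.

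A further cluster of 112 dendritic cells of the CD45 sort, led by *Cd209a*, met no name, with 7 of 8 pDC and 4 of 5 DC2 markers raised. It had 320 CPM of *Tcf4*, 346 of *Ly6d*, 205 of *Siglech*, 149 of *Cox6a2*, 145 of *Ccr9*, 115 of *Klk1*, 67.6 of *Smim5* and 46.2 of *Spib*, all above the levels of DC2-like cells, and *Siglech* UMIs were in 16.1% of its cells. *Irf8* had 846 CPM there and *Runx2* 122. Of these 112 cells 14 had 3 or more *Siglech* UMIs, and 14 reached the CD3 limit. Over all unnamed cells of this sort 15 had 3 or more *Siglech* UMIs, and 12 of these were in the top 5% of doublet scores. At the thinned depth the 83 ZsG-negative unnamed cells had a median of 1 of the 10 genes, while 19.3% had at least 5. The part of doublets in these levels was not tested. Unlike the *Apod*-led cells it held *Id2* at 136 CPM. When this cluster was counted as a class of its own, 7 of 10 genes were still at least 4-fold higher in pDC-like cells. The share of all genes was not worked out for this set of classes.

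Between the ZsG libraries of the CD45 sort, all 10 genes had lower levels in the ZsG-positive pDC-like cells, which was so for 54% of 7662 genes. *Siglech* had 480 CPM (420 to 546) in the 60 ZsG-positive and 1805 (1745 to 1866) in the 222 ZsG-negative cells, a log2 ratio of -1.91 (-2.11 to -1.72). *Klk1* had 160 and 1139 CPM (-2.83, -3.18 to -2.50), and *Cox6a2* 139 and 930 (-2.74, -3.11 to -2.39). These were the widest gaps.

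*Ccr9* had 401 CPM in ZsG-positive and 1402 in ZsG-negative cells (-1.81), *Ly6d* 867 and 3040 (-1.81), *Smim5* 148 and 524 (-1.83) and *Spib* 99.8 and 301 (-1.59). Among the other factors *Irf8* had 1523 and 3357 CPM (-1.14, -1.25 to -1.03). *Runx2* with 362 and 589 (-0.70) and *Tcf4* with 1145 and 1587 (-0.47, -0.60 to -0.34) were within 2-fold. In all, 8 of 10 genes were at least 2-fold lower, against 9.75% of all genes at least 2-fold lower and 15.2% in either direction.

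The make-up of the pDC-like cells moved with the gate. Of the ZsG-negative pDC-like cells 8.56% (5.23 to 13.0) were *Apod*-led, and of the ZsG-positive ones 65.0% (51.6 to 76.9), 19 and 39 cells. Without them the 21 ZsG-positive and 203 ZsG-negative cells differed at least 2-fold in 2 of the 10 genes, *Klk1* (567 and 1254 CPM, -1.14, -1.49 to -0.81) and *Cox6a2* (470 and 1025 CPM, -1.12, -1.51 to -0.76), against 8.93% of 7090 genes at least 2-fold lower and 16.4% in either direction, so that the count is near that of all genes. *Siglech* was then at 1366 and 1975 CPM (-0.53) and *Irf8* at 3313 and 3515 (-0.09). At a resolution of 0.4, where more cells were *Apod*-led, 11 and 156 cells remained and 0 of 10 genes differed 2-fold, against 26.8% of 6334 genes. *Klk1* was at -0.47 (-0.82 to -0.13) and *Ly6d* at 0.35 (0.16 to 0.52). Gaps were also seen within the 39 and 19 *Apod*-led cells of the main clustering. There *Irf8* was at -1.12 (-1.35 to -0.89), *Runx2* at -0.95 (-1.39 to -0.51) and *Ly6d* at -2.63 (-3.20 to -2.08). *Ly6d* UMIs were in only 12.8% and 26.3% of these cells. *Siglech* (-0.01) and *Tcf4* (-0.18) were nearly level, and *Klk1*, *Cox6a2* and *Smim5* had too few UMIs.

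The markers of other lineages also differed between these cells. The 8 pDC markers that named the class summed to 6757 CPM in ZsG-negative and 3903 in ZsG-positive pDC-like cells. The 5 DC2 markers summed to 515 and 1031 CPM, against 1328 in DC2-like cells, with *Ffar2* at 0 in both. The 12 monocyte/macrophage markers summed to 337 and 682 CPM, against 19687 in their own class, with *C1qc* and *Ms4a7* at 0 in the former and *Ace* and *Treml4* at 0 in the latter. The 6 mature DC markers summed to 27.3 and 362 CPM, against 7312, with *Ccl22* at 0 in the ZsG-negative cells. The 6 NK cell/ILC markers summed to 91.8 and 295 CPM, against 2849, with *Ncr1*, *Klrb1c*, *Klra8* and *Eomes* at 0 in the ZsG-positive cells. The 7 T cell markers summed to 58.8 and 14.5 CPM, against 4448, with *Cd3g* and *Trbc2* at 0 in the latter. The 6 DC1 markers were level at 94.9 and 95.6 CPM, against 1395, with *Xcr1*, *Gcsam* and *Itgae* at 0 in both. The 6 B cell markers summed to 414 and 148 CPM, against 6610 in their own class. Median depth was 8454 and 8000 UMIs. The part of these markers in the differences above was not tested.

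**Figure D4:**
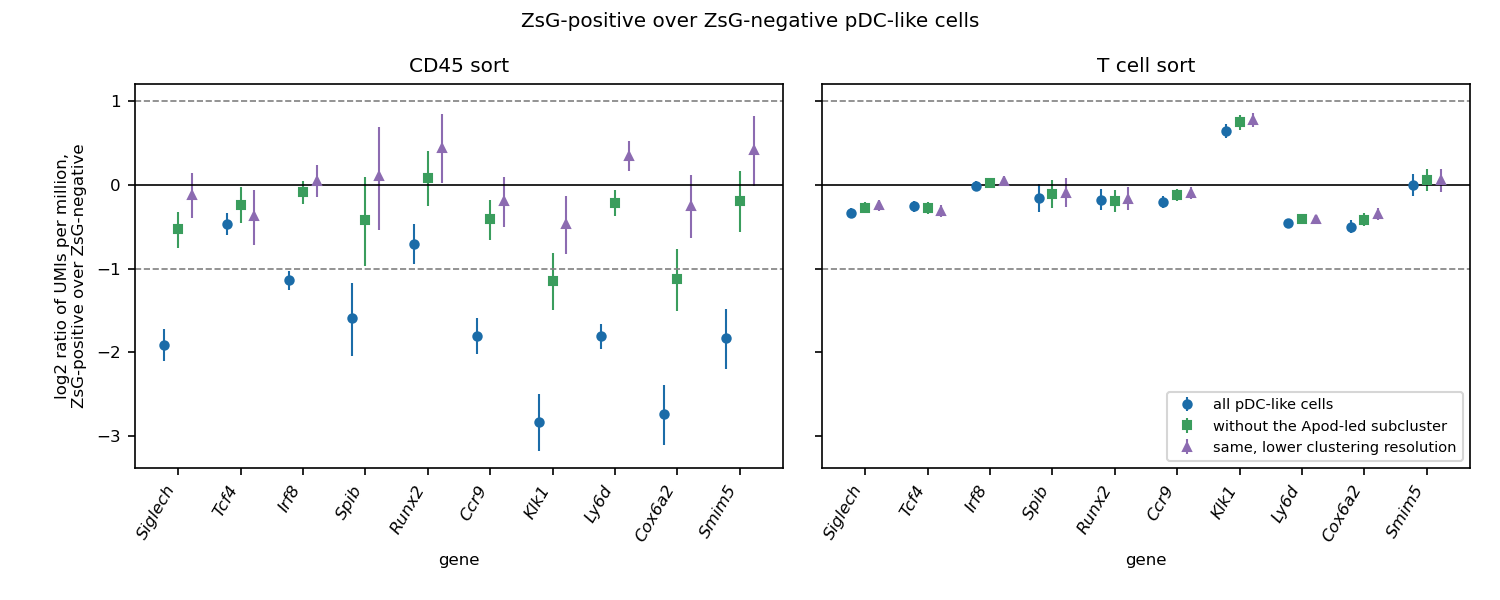
Log2 ratio of the level (CPM) in ZsG-positive over ZsG-negative pDC-like cells for each of the 10 genes, with 95% intervals for counting error only, in the CD45 sort (left) and the T cell sort (right). Circles are all pDC-like cells, squares leave out the *Apod*-led subcluster and triangles do so at the lower clustering resolution. Dashed lines mark a 2-fold difference, which 8 genes pass in the CD45 sort for all pDC-like cells and 0 in the T cell sort.

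In the T cell sort 0 of 10 genes differed 2-fold between the ZsG libraries, against 4.44% of 9195 genes. *Klk1* had 1640 CPM (1606 to 1674) in the 657 ZsG-positive and 1047 (988 to 1108) in the 126 ZsG-negative pDC-like cells (log2 ratio 0.65, 0.56 to 0.74). It was the 1 gene whose interval for counting error lay wholly above 0. *Cox6a2* with 1182 and 1668 CPM (-0.50, -0.57 to -0.42) and *Ly6d* with 3068 and 4209 (-0.46, -0.50 to -0.41) were lower.

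*Siglech* had 1816 CPM in ZsG-positive and 2289 in ZsG-negative cells (-0.33), and *Tcf4* 1693 and 2016 (-0.25). *Irf8* was level, with 3103 and 3122 CPM (-0.01, -0.06 to 0.04), and so was *Smim5*, with 504 in each (0.00, -0.13 to 0.13). *Spib*, *Runx2* and *Ccr9* lay between -0.20 and -0.15. Here *Apod*-led cells made up 7.14% of the pDC-like cells without ZsG and 13.2% of those with it, with intervals that overlapped (3.32 to 13.1 and 10.7 to 16.1). The intervals were apart for *Spns3*-led cells (54.8%, 45.7 to 63.6, and 33.9%, 30.3 to 37.7) and *Iglc2*-led cells (23.8%, 16.7 to 32.2, and 39.6%, 35.8 to 43.4). They cover counting error only, and with 1 library per gate this is no test of ZsG. *Klk1*, which differed between these subclusters, was at 0.26 within the *Spns3*-led, 0.84 within the *Iglc2*-led and 0.25 within the *Ifi44*-led cells.

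*Siglech* alone served as a selection that needs no clustering. Cells with 3 or more *Siglech* UMIs were 225 of 4698 ZsG-negative cells of the CD45 sort (4.79%, 4.20 to 5.44) and 31 of 4123 ZsG-positive cells (0.752%, 0.511 to 1.07), a log2 ratio of shares of -2.67. In the T cell sort they were 123 of 948 (13.0%, 10.9 to 15.3) and 628 of 1879 (33.4%, 31.3 to 35.6), a log2 ratio of 1.37. Of such cells 89.8% lay in the pDC-like class of the CD45 sort and 97.7% in that of the T cell sort. Outside the class, 26 cells of the CD45 sort had 3 or more *Siglech* UMIs, 42 had 1 or 2 and 8471 had 0. Most of the 26 were in the top 5% of doublet scores. These were 12 of 15 unnamed, 4 of 4 T cell-like and 1 of 1 NK cell/ILC-like cells. Among DC2-like cells they were 2 of 2 ZsG-negative and 2 of 4 ZsG-positive cells. Between the ZsG libraries of the CD45 sort, 3 of the other 9 genes differed 2-fold within the *Siglech* cells, *Cox6a2* (-1.80), *Klk1* (-1.64) and *Spib* (-1.07), against 16.1% of genes in either direction. *Siglech* itself, which chose the cells, is left out of this and the following counts over such cells.

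Cells with *Siglech* had a high mitochondrial share of UMIs, with medians of 6.32% in the ZsG-negative and 4.54% in the ZsG-positive library of the CD45 sort and 6.42% and 6.30% in the T cell sort. The medians of all kept cells of these libraries were 4.33%, 3.21%, 4.35% and 4.53%. Below 5% mitochondrial UMIs, 39 of 3283 ZsG-negative CD45 cells (1.19%) had 3 or more *Siglech* UMIs, and at 5% or above 186 of 1415 (13.1%). In the ZsG-positive library they were 21 of 3703 (0.567%) and 10 of 420 (2.38%). The counts were 12 of 604 (1.99%) and 111 of 344 (32.3%) without ZsG and 110 of 1086 (10.1%) and 518 of 793 (65.3%) with ZsG in the T cell sort.

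Within the *Siglech* cells of the CD45 ZsG-negative library the 9 genes other than *Siglech* were all higher at 5% mitochondrial UMIs or above, but none by 2-fold, against 49.9% of 7603 genes higher by any amount and 11.4% different by 2-fold. *Cox6a2*, a nuclear gene for a mitochondrial protein, came closest (1082 and 549 CPM, log2 ratio 0.98, 0.80 to 1.16), and *Runx2* moved least (597 and 419 CPM, 0.51, 0.30 to 0.73). The ZsG-positive library had only 10 such cells at or above and 21 below the limit. There 7 of 9 genes were more than 2-fold higher, against 21.9% of 2107 genes in either direction, with *Klk1* at 1166 and 135 CPM (3.11, 2.46 to 3.79), and *Tcf4* (0.55) and *Irf8* (0.82) within 2-fold.

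In the T cell sort *Cox6a2* (1.54, 1.41 to 1.66) and *Klk1* (1.23, 1.13 to 1.32) passed 2-fold in the ZsG-positive library, against 8.58% of genes, while *Tcf4* was at 0.18. In the ZsG-negative library 0 of 9 did, against 14.6%, with *Cox6a2* the highest at 0.82 (0.55 to 1.10). *Apod*-led cells made up 32.7% (24.1 to 42.3) of the *Siglech* cells below 5% in the ZsG-positive library of the T cell sort and 2.70% (1.49 to 4.49) of those at 5% or above. In the ZsG-negative library of that sort they were 16.7% (2.09 to 48.4) and 3.60% (0.990 to 8.97), which overlap. The ZsG-negative CD45 library had 7.69% (1.62 to 20.9) below 5% and 0 of 186 cells above, which allows up to 1.61%. The ZsG-positive one had 28.6% (11.3 to 52.2) and 0 of 10 cells, which allows up to 30%.

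When only the *Apod*-led cells were left out of the *Siglech* cells of the CD45 ZsG-negative library, the ratios of the 9 genes ran from 0.49 (*Smim5*) to 0.89 (*Cox6a2*). Of the 39 *Siglech* cells below 5% there, 12 were not pDC-like, against 10 of the 186 at 5% or above. Within the pDC-like class without the *Apod*-led cells, a selection that leaves out both, the ratios were smaller, between -0.10 (*Smim5*) and 0.51 (*Cox6a2*, 0.28 to 0.74), with 0 past 2-fold against 11.1% of genes. In the T cell ZsG-positive library *Cox6a2* stayed highest at 0.97 (0.83 to 1.12), followed by *Siglech* at 0.54, again with 0 past 2-fold against 7.26%. In the CD45 ZsG-positive library 5 genes passed 2-fold, with *Klk1* at 3.17, against 12.6% of genes, but these were 10 against 11 cells. What the mitochondrial share has to do with these differences was not tested.

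**Figure D5:**
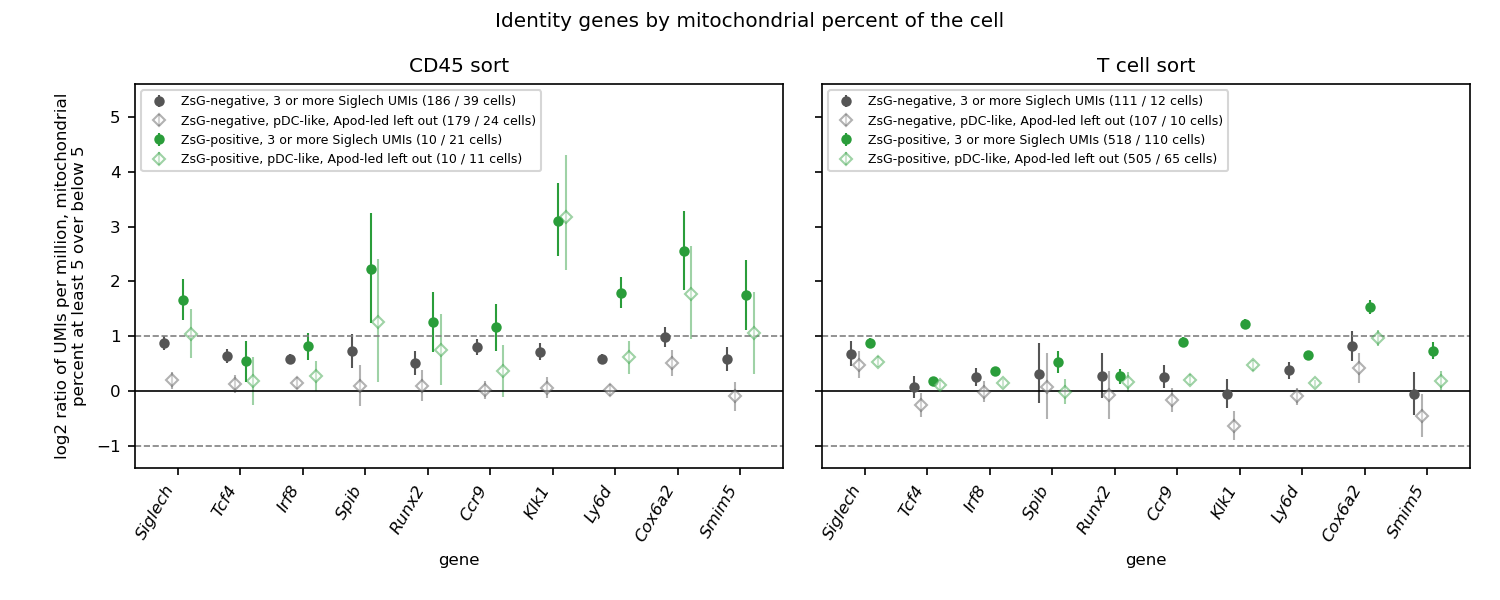
Log2 ratio of the level (CPM) in cells with at least 5% over those with under 5% mitochondrial UMIs, for each of the 10 genes, in the CD45 sort (left) and the T cell sort (right). Filled circles are cells with 3 or more *Siglech* UMIs and open diamonds pDC-like cells without the *Apod*-led subcluster, by ZsG library, with 95% intervals for counting error only and the cell numbers at and above / below 5% in the key. *Cox6a2* lies above 0 in every series, and within the pDC-like class without the *Apod*-led cells the other 9 genes of the ZsG-negative CD45 library lie between -0.10 and 0.20.

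Of 28 paralogs of the 10 genes, 16 passed the minimum of 20 UMIs in the CD45 sort and 17 in the T cell sort. In each sort 5 of these were highest in pDC-like cells, against 13.6% and 12.6% of all genes, and 1, *Klk1b27*, was at least 4-fold higher there than in any other named class, against 1.03% and 1.38%. It had 133 CPM in the CD45 sort, against 1 UMI in B cell-like cells (log2 ratio 4.28, 1.79 to 9.59), and 216 CPM in the T cell sort. The kallikrein genes of this cluster are near-identical, so how reads were split between *Klk1* and *Klk1b27* is uncertain. The other 12 *Klk1b* genes had 0 to 6 UMIs in pDC-like cells of the CD45 sort.

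*Cox6a1*, the widely expressed form of the oxidase subunit, had 283 CPM and was higher in DC2-like cells (372). *Ly6c2* reached 4006 CPM in pDC-like cells and 1121 in monocyte/macrophage-like cells. *Ly6a* with 3043 and *Ly6e* with 2167 CPM were within 2-fold of another class. *Tcf12* had 211 CPM, and *Ccr7*, the lymph node homing receptor of mature dendritic cells, 13.2 CPM against 2920 in mature DC-like cells. *Spi1*, at 155 CPM, was below the 599 of DC2-like cells.

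Of 17 other genes of pDC function, 10 were highest in pDC-like cells of the CD45 sort, against 13.6% of all genes, and 3 were at least 4-fold higher, against 1.03%. These were the RNA sensor *Tlr7* (130 CPM, log2 ratio 2.31), *Ctsl* (1475 CPM, 2.02) and *Dntt* (59.5 CPM, with 3 UMIs in the next class, 7.10, 5.53 to 9.40). *Tlr9* was barely detected (14 UMIs, 5.78 CPM), and *Irf7*, the interferon regulator, was as high in monocyte/macrophage-like cells (390 and 393 CPM). Of the 17, 14 were highest and 6 passed 4-fold in the T cell sort, against 12.6% and 1.38%, *Bcl11a*, *Mycl*, *Rnase6* and *Blnk* joining *Tlr7* and *Dntt*. In the CD45 sort the next or higher class for these 4 was B cell-like (*Bcl11a*, *Blnk*) or DC1-like (*Mycl*, *Rnase6*), classes that were not named in the T cell sort. All 4 factors known to oppose the pDC fate or to drive classical dendritic cells were lower in pDC-like cells than in another class, as were most genes, since only 13.6% of all genes were highest in pDC-like cells. *Id2* had 19.4 CPM against 1161 in mature DC-like cells (-5.90), *Batf3* 2.48 against 283 in DC1-like cells (-6.84), *Nfil3* 14.0 against 137 and *Zbtb46* 12.4 against 47.2.

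Over 13 units of at least 20 cells (a class in 1 library of the CD45 sort), the 5 other genes whose log2(CPM + 1) followed that of *Siglech* most closely were *Fbxl13* (Pearson's r 0.961), *Gm14207* (0.961), *Ptprf* (0.959), *Gm12503* (0.959) and *Havcr1* (0.958). Among the 10 genes *Ccr9* was nearest to *Siglech* at 0.983, followed by *Klk1* at 0.964 and *Cox6a2* at 0.911, and *Irf8* was farthest at 0.458. These are descriptions over units that share libraries and depth, with the pDC-like units far from the rest.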

How the data were processed

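The authors aligned reads of 4 droplet libraries (10x 3' v3.1) to mm10 with Cell Ranger and deposited UMI counts per gene and barcode, 1 matrix per sort. The submitters' processing notes name version 6.1.2, as does the header of the T cell matrix, while that of the CD45 matrix names 7.0.0. The matrices also held different numbers of genes, 31053 in the T cell sort and 32285 in the CD45 sort. What this does to levels and shares set side by side between the sorts was not tested. Barcode suffixes gave the library. The members and lists were chosen with earlier results of these data known.

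From the deposited counts, cells with 1000 to 6000 genes and less than 10% mitochondrial UMIs (CD45 sort) or 50 to 6000 genes and less than 15% (T cell sort, without the CD3 limit of the methods) were kept. They were clustered in Seurat 5.3.0 with R 4.3.3 (genes in at least 3 cells, 2000 variable genes without the 10 genes, 20 components, resolution 0.8 or 1.2), and dendritic clusters were clustered again. Clusters were named from fixed markers by a rule set after clusters had been seen. Scrublet in scanpy 1.11.5 called 0 doublets in the CD45 sort, which was taken as void, and 14 in the T cell sort. None were removed. UMIs were summed per class and library with Python 3.11.15, numpy 2.4.6, scipy 1.17.1 and pandas 2.3.3, and drawn with matplotlib 3.10.9. Sums have exact Poisson, shares Clopper-Pearson and ratios exact conditional intervals. Genes needed 20 UMIs over the cells compared. With 1 library per fraction no test was run. A share of 0 is given with the limit that 3 counts allow.

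All 10 genes are named, with fixed lists of paralogs, pDC genes and opposing factors and the 5 genes most like *Siglech*; *Apod*, *Iglc3* and other leading genes of clusters were named after their values were seen. Only the ratios between the ZsG libraries of pDC-like cells were tested on simulated counts, which held Poisson error and no spread between cells. Thinning was checked for its depth. Clustering, naming, ratios between classes and mitochondrial splits were not simulated. Alternatives were edgeR 4.0.16 TMM factors, totals without mitochondrial and ribosomal protein genes, other UMI minimums, thinning, mitochondrial limits, clustering settings and doublet removal. Promoters came from RefSeq (GRCm38.p6) and positions from GENCODE vM21. Levels of single B cell markers are not reported here. Of the paper, flow cytometry and culture data were not used here.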

Additional observations from a re-analysis of the deposited data

Results flagged for a closer look

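The share of cells with 3 or more *Siglech* UMIs moved in opposite directions with ZsG in the sorts. In the CD45 sort it was lower in the ZsG-positive library (log2 ratio of shares -2.67), and in the T cell sort it was higher (log2 ratio 1.37). These are shares of all kept cells of a library, so they also depend on which other cells a gate held. They do not give the share of pDC that carried ZsG. For the CD45 sort the paper reports pDC among the cells that appeared ZsG-negative. The difference between the sorts was not tested, since each fraction had 1 library. The gates were also unlike, since by the paper's account the CD45 sort took only bright cells as ZsG-positive. Nearly all pDC-like cells of the T cell sort were below the CD3 limit, so their share there is one of cells outside the gate's target. The direction in the T cell sort rests on which barcode suffix is the ZsG-positive library, where the sources disagree, and with the other order both sorts show a lower share in the ZsG-positive library. The paper reports an enrichment of Tregs among its ZsG-positive T cells. In the order used, Treg-like cells numbered 33 of 948 kept cells in the ZsG-negative and 102 of 1879 in the ZsG-positive library, without the CD3 limit. Kept cells at the CD3 limit numbered 659 and 780, and the Treg-like cells among these were not counted. The order used thus gives the paper's direction for Tregs, and the other order would turn it.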

How the results depend on the processing

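Of 47 values that alternatives gave for the 8 main results, 38 stayed within their limits, which are not given here, 8 moved and 1 turned. The 38 is no measure of stability, since some values could not move. *Spib*, with the fewest UMIs of the genes, had 632 in pDC-like cells of the CD45 sort. A stricter minimum of 100 UMIs, or a lower one, thus could not alter a count of the genes. Exchanging the libraries of the T cell sort cannot alter a count of 2-fold differences in either direction. The number of genes at least 2-fold different between the ZsG libraries of the CD45 sort (8) was 3 in cells with 3 or more *Siglech* UMIs, 2 without the *Apod*-led subcluster and 0 without it at a resolution of 0.4. In the last setting 5 genes turned their direction, with log2 ratios (0.5 added to each sum) of 0.057 for *Irf8*, 0.14 for *Spib*, 0.35 for *Ly6d*, 0.44 for *Smim5* and 0.46 for *Runx2*, which had been within 2-fold and was at 0.092 without the *Apod*-led subcluster. The number at least 2-fold different by mitochondrial share in ZsG-negative cells (0) was 1 in pDC-like cluster cells, *Cox6a2*. The log2 ratio of *Siglech* cell shares in the CD45 sort (-2.67) was -1.07 below 5% mitochondrial UMIs, -3.61 for cells with 5 or more *Siglech* UMIs and -3.51 after thinning. The median number of the genes per pDC-like cell (8) was 4.5 below 5% mitochondrial UMIs. With the libraries of the T cell sort exchanged, its log2 ratio was -1.37 in place of 1.37. The causes were not tested. Settings without the *Apod*-led cells and the exchanged order were chosen after seeing the data.

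With the CD3 limit applied, 5 pDC-like cells remained in the T cell sort, too few for a value. No paired analysis was possible because each group has 1 library. Depth limits the B cell-like class (40 cells) and the ZsG-positive pDC-like cells of the CD45 sort (60).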
